A study of Mus musculus with 4 samples.

Results

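Sperm-egg fusion is the last step of fertilization, in which the membrane of the sperm head joins that of the egg. IZUMO1 on the sperm binds its receptor JUNO on the egg, and several other sperm proteins, among them SPACA6, TMEM95, DCST1 and DCST2, are needed for fusion after binding in mice. Their genes are read in the testis long before the proteins act, and round spermatids, the haploid germ cells that build the acrosome before they elongate, make much of this RNA. The genes described here are the rows of the deposited table whose symbol is Izumo1, Izumo2, Izumo3, Izumo4, Spesp1, Spaca6, Tmem95, Dcst1, Dcst2 or Crisp2. Of these 10 symbols, 8 had a row among the 25965 genes listed, and all 8 entered the test of 15888 genes. No expression value of Dcst2 was analysed here. Spaca6 had no row of that name, and the row at its position is described separately below.

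RNA was measured in round spermatids sorted by flow cytometry from testis of ICR mice, an outbred stock, with the Smart-seq2 protocol. There were 2 libraries labelled Wfdc15a-/- and 2 control libraries labelled Wfdc15a+/-, whose mice also carry 1 altered allele of Wfdc15a, a gene for a small WAP-domain protein. The labels give neither the age of the mice, the part of the gene that was altered, the number of cells per library, nor whether replicates came from separate animals. The p-values therefore measure the spread between these libraries, which may be technical. Wild-type mice, which the design text names, were not analysed here.

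The deposited values are log2 RPM, reads scaled to a common library total, and are not corrected for gene length. Library totals recovered from their steps were 21160061 and 11268909 reads in the knockout-labelled libraries and 5774112 and 33853604 reads in the heterozygous ones. Wfdc15a itself was at 82.6 and 59.5 RPM in knockout-labelled libraries against 121 and 85.2 RPM in heterozygous libraries. Its transcript was thus present under both labels, and the genotype is given as labelled. All 13 round spermatid markers were read in every library, with sums of 13283 to 15145 RPM over the 4 libraries, while 7 oocyte markers summed to 0.738 to 1.91 RPM. Ldhc alone held 9353 to 10673 RPM of the round spermatid sums, so they say little of the other markers. All but Acr and Ldhc were lowest in heterozygous library 1. Of the 13, 12 had a positive log2 difference, knockout-labelled minus heterozygous, as had 8906 of all 15888 tested genes. In both knockout-labelled libraries 3 were higher, beside 23.5% of all tested genes. Sums of several other marker lists also differed between libraries. Elongating spermatid markers, 8 genes of late spermatids, summed to 3192 and 2706 RPM in knockout-labelled libraries and to 3193 and 5879 RPM in heterozygous ones, with the highest sum in heterozygous library 2. Of these 8, 5 were lower in both knockout-labelled libraries than in both heterozygous ones, beside 15.0% of all tested genes. The median difference of the 8 was -0.77 on the log2 scale. Tnp2, a transition protein gene, was at 173 and 127 RPM in knockout-labelled libraries, against 393 and 582 RPM in heterozygous libraries. Macrophage markers, 18 genes, summed to 444 and 149 RPM against 44.2 and 41.2 RPM. Of the 17 tested, 16 were higher in both knockout-labelled libraries, beside 23.5% of all tested genes. Of these markers, 1, Tyrobp, had no read in either heterozygous library. Leydig markers, 7 genes, summed to 35.9 and 18.3 RPM against 6.41 and 3.16 RPM, and spermatogonium markers, 8 genes, to 87.0 and 75.9 RPM against 57.8 and 50.9 RPM. Sertoli markers, 9 genes, summed to 54.7 and 51.8 RPM against 18.2 and 34.6 RPM. Clu alone held 37.2 and 29.6 RPM of these, against 10.7 and 25.6 RPM. Of the 6 Sertoli markers tested, 4 had positive differences, while Cldn11 and Gata4 had -0.34 and -0.33. Spermatocyte markers, 9 genes, summed to 1267 and 1559 RPM against 1603 and 1198 RPM. In bulk samples, fewer cells of a type and less RNA per cell cannot be told apart.

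The sequences before the RefSeq starts of these genes are described by the short motifs they hold. RefSeq's table for GRCm38.p6, the assembly called mm10, holds 9 of the 10 symbols named above. The 250 bases before each start were searched on both strands for the cyclic AMP response element TGACGTCA, the site of the spermatid activator CREM, and for its core TGACG, which also lies inside it. The full element was present in 1 of the 9 windows, that of Izumo1, beginning 96 bases before the start, against 1.55% of 32817 windows of the same length in the table. The core was present in 2 of the 9, Izumo1 and Tmem95, against 17.7% of all windows. The same windows were searched for 3 further motifs on both strands. TATAAA was found in 1 of the 9, that of Crisp2, against 12.4% of all windows. GTTGCC, part of the site of RFX factors, was found in 2, Spesp1 and Spaca6, against 10.4%. The GC box GGGCGG was found in 3, Izumo1, Spesp1 and Dcst2, against 32.7%. Some of these windows are not free of genes. In GENCODE M21, 237 of the 250 bases of the Spaca6 window, 185 of the Dcst2 window and 168 of the Dcst1 window are exonic, and the RefSeq start used for Spaca6 lies inside the gene. The RefSeq start used for Crisp2 lies 12857 bases inside the deposited row. A match of letters is a description and not evidence of binding. The windows of Izumo1, Izumo2 and Izumo3 are shown because these relatives share a protein domain and were read in every library, and the stretch between Dcst1 and Dcst2 because in RefSeq it lies between the starts of a divergent pair. Capitals mark the response element.
Izumo1, chr7:45621561-45621810, plus strand: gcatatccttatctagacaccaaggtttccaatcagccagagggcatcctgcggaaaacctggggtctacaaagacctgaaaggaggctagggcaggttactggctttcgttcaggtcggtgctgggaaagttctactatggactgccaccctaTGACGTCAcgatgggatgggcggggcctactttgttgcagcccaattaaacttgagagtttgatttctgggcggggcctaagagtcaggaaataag
Izumo2, chr7:44708480-44708729, plus strand: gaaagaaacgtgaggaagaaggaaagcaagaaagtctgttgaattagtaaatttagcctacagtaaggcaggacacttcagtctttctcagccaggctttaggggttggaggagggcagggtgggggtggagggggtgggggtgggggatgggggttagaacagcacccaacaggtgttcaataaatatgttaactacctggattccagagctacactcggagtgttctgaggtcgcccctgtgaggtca
Izumo3, chr4:92147222-92147471, minus strand: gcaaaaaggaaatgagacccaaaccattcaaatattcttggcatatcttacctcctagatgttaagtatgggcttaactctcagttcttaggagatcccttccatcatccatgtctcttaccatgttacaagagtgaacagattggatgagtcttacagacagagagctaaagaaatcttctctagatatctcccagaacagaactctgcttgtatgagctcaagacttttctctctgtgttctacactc
Between Dcst1 and Dcst2, chr3:89365254-89365318, plus strand: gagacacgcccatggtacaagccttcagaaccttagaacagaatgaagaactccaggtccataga
The Izumo1 window held 7 CG dinucleotides, the Izumo2 window 3 and the Izumo3 window 0, beside a median of 6 over all windows, of which 7.87% held none. In RefSeq, Dcst1 starts at position 89365253 of chromosome 3 on the minus strand and Dcst2 at 89365319 on the plus strand, 65 bases lying between them. In GENCODE M21, Dcst2 instead runs from 89361975 to 89377549 and overlaps the first part of Dcst1, with no exonic base shared.

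The comparison of the genotypes asked whether transcripts of the fusion genes differ in spermatids labelled as lacking intact Wfdc15a. None of the 8 passed the test. In the 15888 genes tested with limma, 0.0% passed a Benjamini-Hochberg adjusted p of 0.05, so the members' count of 0 equals the share over all genes. Without adjustment, 1283 genes, 8.08% of those tested, had a p under 0.05, and 0 of them were members. With limma voom on the recovered reads, 0 genes passed, 1961 had an unadjusted p below 0.05, and 0 of these were members. Group differences below are log2 RPM of knockout-labelled minus heterozygous libraries.

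**Figure D1:**
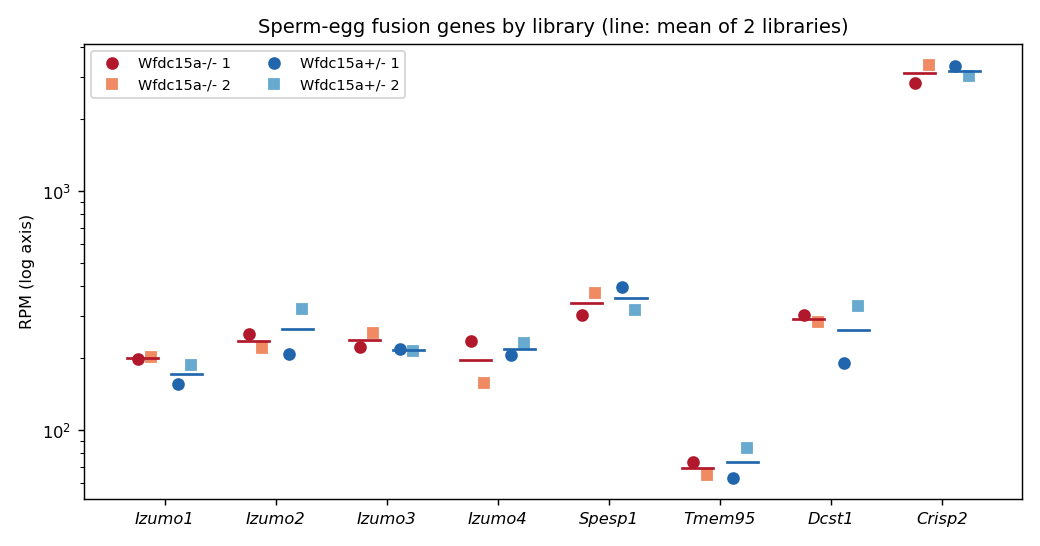
RPM of each fusion gene on a log axis, with the 2 Wfdc15a-/- libraries left of the 2 Wfdc15a+/- libraries, and a line at each group's mean. The groups overlap for 6 of 8 genes, and Izumo1 and Izumo3 are higher in both Wfdc15a-/- libraries; RPM is not corrected for length, so heights compare libraries within a gene.

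Izumo1, the sperm ligand of JUNO and the founding member of its family, is annotated in GENCODE M21 as a protein-coding gene (ENSMUSG00000064158.6) on chromosome 7 from 45621811 to 45628823, plus strand. It was at 198 and 202 RPM in knockout-labelled libraries, against 156 and 187 RPM in heterozygous libraries. Both knockout-labelled libraries were higher, and the lowest value was that of heterozygous library 1, the library with the fewest reads (898 for this gene). The means were 199.9 ± 2.71 RPM and 171 ± 22.5 RPM (SD, n = 2 each). The difference was 0.23 (SE 0.23, 95% interval -0.27 to 0.73, limma adjusted p = 0.831), about the size of its SE. It was 0.36 without heterozygous library 2 and 0.094 without heterozygous library 1. Part of its exons, 654 bases or 21.9%, are shared with Rasip1 on the same strand, which was listed at 3.64 to 4.91 RPM over the 4 libraries. Reads in that part cannot be assigned with certainty.

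Izumo2, Izumo3 and Izumo4 encode relatives with the Izumo domain. Izumo2 (chromosome 7, 44708743 to 44719842, plus strand) was at 252 and 221 RPM in knockout-labelled libraries, against 207 and 321 RPM in heterozygous libraries. The heterozygous libraries enclosed the other group, and their gap was the wider one. The difference was -0.13 (SE 0.25, 95% interval -0.69 to 0.43, limma adjusted p = 0.928), and 0.19 without heterozygous library 2. The sum of the elongating spermatid markers was likewise highest in heterozygous library 2, as given above. Some round spermatid markers were too, such as Tssk1 (233 and 398 RPM in heterozygous libraries 1 and 2) and Tssk2 (142 and 318 RPM). Others, such as Acrv1 and Actl7b, were highest in knockout library 1. The part of either list in this gap was not tested.

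Izumo3, whose disruption in the mouse disturbs acrosome formation, lies on chromosome 4 from 92144329 to 92147234 on the minus strand. It was at 223 and 255 RPM in knockout-labelled libraries, against 218 and 214 RPM in heterozygous libraries. It was the steadiest member over all 4 libraries, with a 1.19-fold range that Crisp2 matched. Although the groups did not overlap, the difference of 0.14 (SE 0.22, 95% interval -0.34 to 0.62, limma adjusted p = 0.905) did not pass. It was 0.043 without knockout library 2 and 0.24 without knockout library 1.

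Izumo4, a form without a membrane anchor, lies on chromosome 10 from 80702693 to 80705382 on the plus strand. It was at 235 and 157 RPM in knockout-labelled libraries, against 206 and 231 RPM in heterozygous libraries. Knockout library 2 stood below the other libraries, which lay within 206 to 235 RPM. The difference was -0.18 (SE 0.25, 95% interval -0.74 to 0.37, limma adjusted p = 0.890). It was 0.11 without knockout library 2, so 1 library gave the sign.

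Tmem95, a membrane protein needed for fusion in mice, is a compact gene of 7 exons and 531 exonic bases on chromosome 11 from 69876684 to 69878018, minus strand. It was at 73.8 and 64.8 RPM in knockout-labelled libraries, against 62.9 and 84.1 RPM in heterozygous libraries. Both heterozygous values lay outside those of the other group, 1 on each side. The difference was -0.073 (SE 0.27, 95% interval -0.67 to 0.53, limma adjusted p = 0.968), and it was 0.021 without knockout library 2 and 0.14 without heterozygous library 2. The lowest value rested on 363 reads, whose exact Poisson 95% interval of 56.6 to 69.7 RPM covers counting error only.

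Dcst1, a multi-pass membrane protein that works with DCST2, lies on chromosome 3 from 89350219 to 89365253 on the minus strand. It was at 301 and 284 RPM in knockout-labelled libraries, against 191 and 330.4 RPM in heterozygous libraries. It varied most of the members, 1.73-fold over the 4 libraries, and that range was set by the heterozygous pair. The difference was 0.22 (SE 0.27, 95% interval -0.37 to 0.81, limma adjusted p = 0.876). Without heterozygous library 2 it was 0.61 (limma adjusted p = 0.146), and without heterozygous library 1 it was -0.18 (limma adjusted p = 0.853). GENCODE M21 places the pseudogene Gm10702 on the opposite strand over 1268 of the exonic bases of Dcst1. The protocol keeps no strand and the counting tool is not given, so how reads in that overlap were assigned is not known.

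Spesp1, a protein of the equatorial segment where fusion begins, is a gene of 2 exons on chromosome 9 from 62270729 to 62282179, minus strand. It was at 302 and 376 RPM in knockout-labelled libraries, against 396 and 319 RPM in heterozygous libraries. The pairs interleaved. The difference was -0.077 (SE 0.22, 95% interval -0.57 to 0.41, limma adjusted p = 0.955), and it was 0.082 without knockout library 1 and 0.079 without heterozygous library 1.

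Crisp2, a cysteine-rich secretory protein stored in the acrosome and the tail, lies on chromosome 17 from 40764734 to 40807003 on the minus strand. It was at 2832 and 3375 RPM in knockout-labelled libraries, against 3334 and 3011 RPM in heterozygous libraries. The heterozygous values fell between those of the other group. The difference was -0.035 (SE 0.17, 95% interval -0.41 to 0.34, limma adjusted p = 0.977), with the smallest error of the 8, and it was 0.091 without knockout library 1 and 0.038 without heterozygous library 1. Its 19252 to 101938 reads per library made 64.1% to 69.9% of the summed RPM of the 8 genes, a share of reads and not of transcripts.

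**Figure D2:**
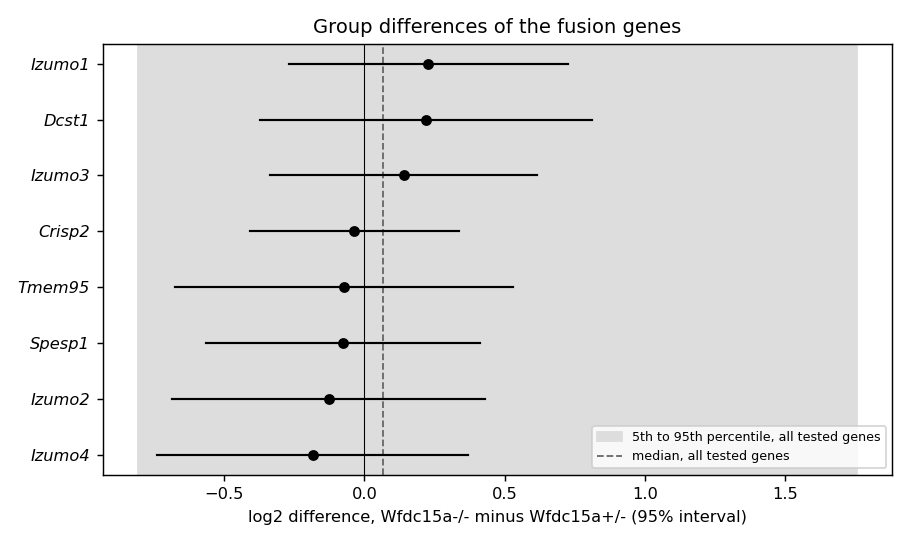
Log2 difference of each fusion gene, Wfdc15a-/- minus Wfdc15a+/-, with limma's 95% interval, beside the median (dashed, 0.068) and the 5th to 95th percentile of all tested genes (grey, -0.81 to 1.75). Every interval crosses 0, and the 8 estimates lie between -0.18 and 0.23.

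Taken as a list, 3 members had positive and 5 negative differences. Their median was -0.054, beside 0.068 over all 15888 genes tested. The 2 members above both heterozygous libraries, Izumo1 and Izumo3, are 25% of the 8, and 23.5% of all tested genes were above both. No member lay below both, where 15.0% of all tested genes did. All tested genes include many with few reads. Among the 4043 averaging 50 RPM or more, as every member did, the median difference was -0.032. Of those genes, 12.8% were above both heterozygous libraries and 18.4% below both. The widest limits were -0.74 for Izumo4 and 0.81 for Dcst1, so a halving or doubling lay outside every member's 95% interval from limma. Those intervals draw on the spread of other genes as well as on the member's own libraries. They need not cover the spread between animals. The 8 genes together had 4417 and 4934 RPM in knockout-labelled libraries, against 4771 and 4698 RPM in heterozygous libraries. Without Crisp2 the sums were 1585 and 1559 RPM, against 1437 and 1687 RPM.

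In the median over the members, the gaps between replicates were larger than the group difference. A gap compares single libraries, while the group difference compares means, which vary less. In Izumo1, Izumo3, Izumo4 and Dcst1 the group difference exceeded the smaller gap. The median absolute gap over the members was 0.19 between knockout-labelled libraries and 0.29 between heterozygous libraries on the log2 scale. The median absolute group difference was 0.13. Among the 4043 tested genes averaging 50 RPM or more, these values were 0.20, 0.30 and 0.16. In 0 of the 8 members did the group difference exceed both gaps. The matching share over all tested genes was not counted, so this describes the 8 genes only. The widest gaps were those of Dcst1, Izumo2 and Tmem95 in the heterozygous pair (0.79, 0.63 and 0.42, each higher in library 2), and that of Izumo4 in the knockout-labelled pair (0.58, higher in library 1). Spesp1 went the other way, 0.31 higher in heterozygous library 1.

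**Figure D3:**
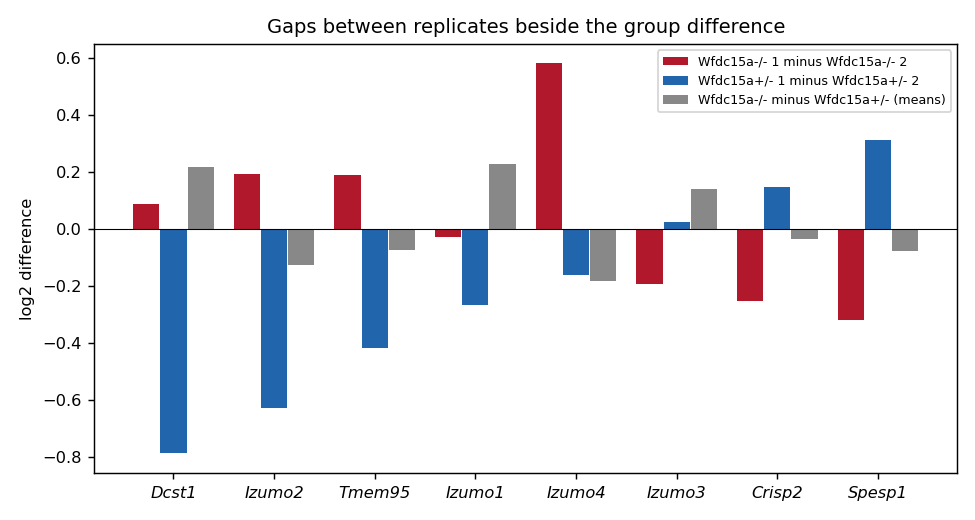
For each fusion gene, the log2 gap between the Wfdc15a-/- libraries (red) and between the Wfdc15a+/- libraries (blue), library 1 minus library 2, beside the group difference (grey). In no gene is the grey bar taller than both others, and the matching share over all tested genes was not counted.

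Levels were set against each other per length, as RPM per kb of all annotated exons. Crisp2 was highest, at 1005 and 1198 RPM per kb in knockout-labelled libraries and 1183 and 1069 in heterozygous libraries. Izumo2 followed with 286 to 443 over the 4 libraries, then Izumo3 with 169.6 to 201. The ranges of these 3 did not overlap with each other or with the next gene. Tmem95 (118 to 158 RPM per kb) and Spesp1 (99.1 to 130.1) overlapped and changed places in 2 of the 4 libraries. Izumo4 (56.2 to 84.0), Izumo1 (52.0 to 67.4) and Dcst1 (36.5 to 63.0) came last, with neighbouring ranges overlapping. Izumo1, the gene whose product binds the egg receptor, thus had a lower level per kb than Izumo2 and Izumo3 in each library. Among the 14018 tested genes with a matched annotation, the members ranked from the 87.3rd percentile of RPM per kb (Dcst1, heterozygous library 1) to the 99.96th (Crisp2, knockout library 2).

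Choosing another length from the same annotation moved the last places, and no other annotation was tried. Dcst1 has 6 annotated transcripts, whose exons together cover 5241 bases, while its longest transcript has 2342. With the longest transcript as the length, 4 of the 8 genes kept their place. Dcst1 moved from the eighth place to the fifth, at 118 RPM per kb in the mean of 4 libraries, and Izumo1 came last at 79.7.

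**Figure D4:**
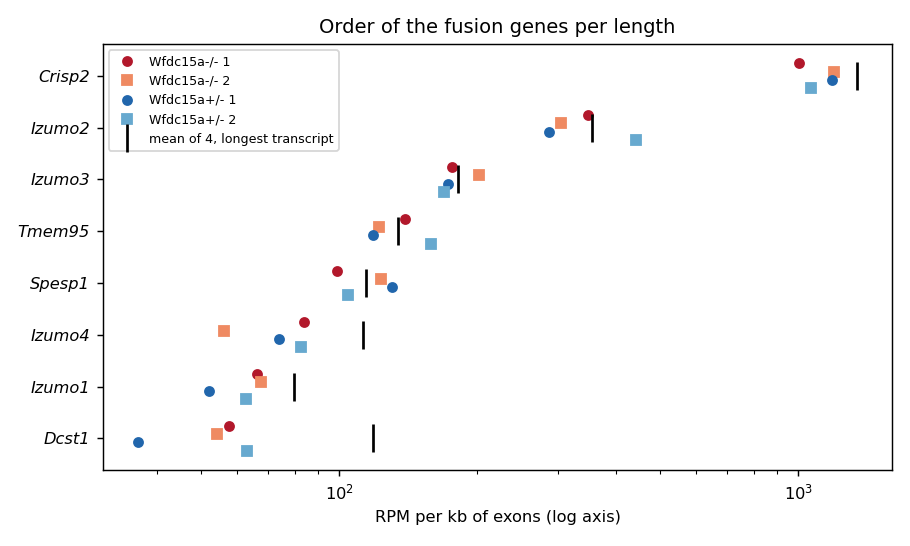
RPM per kb of annotated exons for each fusion gene and library on a log axis, ordered by the mean, with Wfdc15a-/- libraries above Wfdc15a+/- libraries in each row. Black ticks give the mean of 4 libraries when the longest transcript is the length; they move Dcst1 to 118 RPM per kb, above Izumo1 and Izumo4.

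The row at the position of Spaca6 carries the symbol Ncrna00085, which RefSeq lists as a synonym of Spaca6. It runs from 17830719 to 17843009 on the plus strand of chromosome 17, inside the protein-coding gene Spaca6 of GENCODE M21 (17827158 to 17843009). It was at 124 and 79.6 RPM in knockout-labelled libraries, against 66.7 and 103 RPM in heterozygous libraries. Both groups spread widely and overlapped. The difference was 0.26 (SE 0.31, 95% interval -0.43 to 0.95, limma adjusted p = 0.873). M21 also places the microRNA gene Mir125a within the row, so its reads need not all come from the Spaca6 messenger.

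The tested genes nearest to each member over the 4 libraries are given by Euclidean distance of log2 RPM. Nearest to Izumo1 were Ip6k1 and Ddhd1 (distances 0.080 and 0.11), and nearest to Izumo2 were Osbpl10 and Gapdhs (0.063 and 0.16). Gapdhs, the sperm form of a glycolytic enzyme gene, is also 1 of the elongating spermatid markers above. It was not among the 5 that were lower in both knockout-labelled libraries (difference -0.047, limma adjusted p = 0.981). For Izumo3 they were Asnsd1 and Nupl1 (0.098 and 0.11), and for Izumo4 Dad1 and Rps20 (0.074 and 0.14). Spesp1 was nearest to Ints10 and Evi5 (0.14 and 0.15), and Tmem95 to Aldh3b1 and D19Ertd386e (0.12 and 0.14). Dcst1 was nearest to Chn2 and Abhd5 (0.18 and 0.20), and Crisp2 to Fhl4 and Phf7 (0.19 and 0.24). With 4 libraries such likeness mostly reflects a similar number of reads.

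Other genes of egg adhesion, fusion and the acrosomal membrane were counted from a separate list of 29, all of which had a row and 27 of which were tested. None passed in either direction, and 18 had positive differences, as had 8906 of all 15888 tested genes. Above both heterozygous libraries were 6, and 0 were below both, beside 23.5% and 15.0% of all tested genes. Among the tested genes averaging 50 RPM or more, these shares were 12.8% and 18.4%. Their median difference was 0.14. Before adjustment, 2 had a p under 0.05, both higher, beside 8.08% of all tested genes. The 4 genes with the smallest p are given next. Cd46, a complement regulator of the acrosomal membrane in mice, was at 30.8 and 46.8 RPM in knockout-labelled libraries, against 18.2 and 16.3 RPM in heterozygous libraries (difference 1.14, SE 0.34, limma adjusted p = 0.470). Cd81, a tetraspanin, was at 21.9 and 17.8 RPM, against 7.45 and 9.10 RPM (difference 1.26, SE 0.37, limma adjusted p = 0.470). Tetraspanins are widely made by body cells too, and the macrophage markers given above were higher in the same libraries; their part in this was not tested. Spaca1, an acrosomal membrane protein, was at 535 and 496 RPM against 384 and 387 RPM (difference 0.42, SE 0.19, limma adjusted p = 0.624). Tmem81, which joins IZUMO1 and SPACA6 in a complex on sperm, was at 40.1 and 30.6 RPM, against 9.35 and 30.9 RPM (difference 1.04, SE 0.49, limma adjusted p = 0.626), the low value being heterozygous library 1. The fusion factor genes Llcfc1 and Fimp, listed as 1700034O15Rik and 4930451I11Rik, had differences of 0.085 and -0.12 (limma adjusted p = 0.963 and 0.961), and the Rik-named row of Frey1, a chaperone gene for sperm surface proteins, had -0.37 (limma adjusted p = 0.831).

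**Figure D5:**
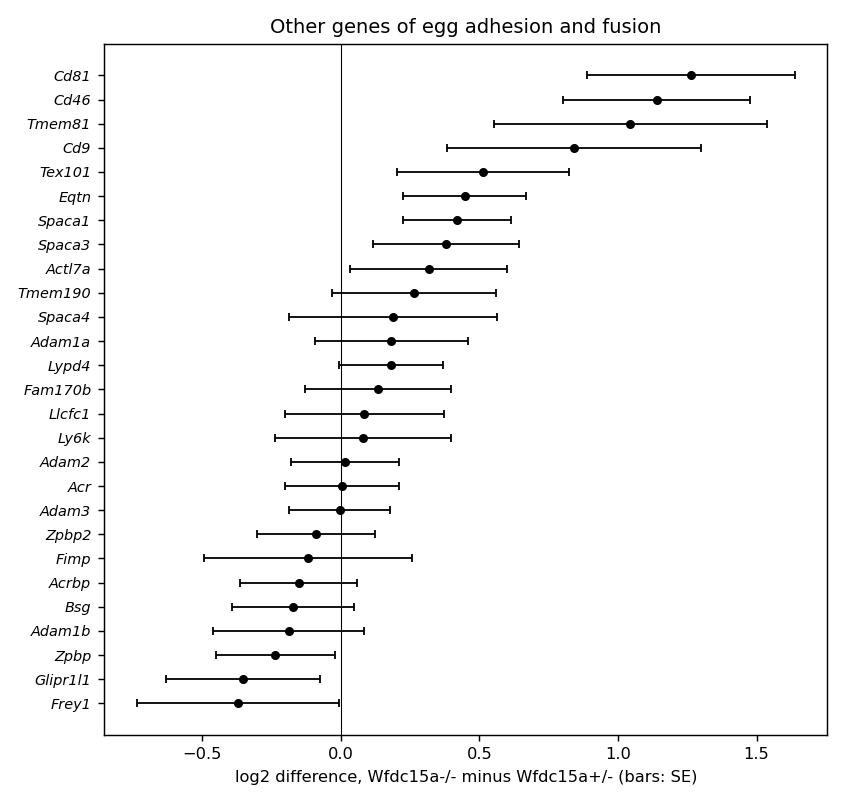
Log2 difference, Wfdc15a-/- minus Wfdc15a+/-, of the 27 tested genes of the egg adhesion and fusion list, with SE bars. Cd81 and Cd46 lie farthest to the right at 1.26 and 1.14, and Frey1 farthest to the left at -0.37; none passed the adjusted test.

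Relatives of Crisp2 had few reads. Of 8 family genes, 5 were tested, 0 passed in either direction, and 8 together summed to 21.3 and 18.0 RPM in knockout-labelled libraries, against 19.9 and 16.2 RPM in heterozygous libraries. Crispld2, a secreted relative, had 7.04 and 4.70 RPM in knockout-labelled libraries, against 0.693 RPM and no read in heterozygous libraries (limma adjusted p = 0.453). Crisp4, best known from the epididymis, was at 5.81 and 8.34 RPM, against 8.14 and 9.04 RPM. Glipr1 was at 2.79 and 3.02 RPM, against 7.10 and 2.01 RPM. Crispld1 had 2.03 RPM and no read, against no read and 3.78 RPM. The DC-STAMP relatives of Dcst1, Dcstamp and Ocstamp, known from fusing bone and immune cells, summed to 0.473 and 0.444 RPM, against 0.693 and 0.118 RPM. The egg side of the interaction, 5 genes including that of JUNO, summed to 0.709 and 0.710 RPM, against 0 and 0.177 RPM, and 0 of these were tested.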

How the data were processed

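The authors deposited 1 table of log2 RPM values per gene, scaled to the total of each library. The submitters' processing notes name HISAT2 2.1.0, Trim Galore 0.6.6, FastQC 0.11.8 and the mm10 build (counting tool, annotation, filters: not given in the sources used here). Within a library the values step by whole reads, the lowest being 0.9 of a read (99.7% to 100.0% of others whole within 0.01 of a read); it was taken as 0 reads. Genes of at least 1 RPM in 2 or more libraries were compared with limma 3.58.1 (R 4.3.3) on the deposited log2 RPM with a mean-variance trend, two-sided, over all 15888 genes; the code was tested on simulated data. Members are named by the 10 symbols; of each further list, passing genes or else those of smallest p, plus a few chosen after their values were seen (Llcfc1, Fimp, Frey1). Members and lists were chosen with earlier results of these data known. The 12 alternatives changed scaling, scale, filter, variance model, pairing or 1 library at a time. Replicate numbers do not pair the samples by any label. Annotation was GENCODE M21 (mm10) and upstream sequences RefSeq's; Python 3.11.15, pandas 2.3.3, SciPy 1.17.1 and matplotlib 3.10.9 were used. Counting intervals cover counting error only, since amplified reads were not collapsed to molecules.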

Additional observations from a re-analysis of the deposited data

How the results depend on the processing

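The number of members passing was 0 under all 12 alternatives. The number of all genes passing, 0 as reported, was 1 with log2(RPM + 1), 180 without a filter and 0 to 558 when 1 library was left out; those last fits take their spread from the other group alone. The replicate block gave 66 passing genes and 0 members. The same-numbered libraries deviated with a correlation of -0.076 across genes, and nothing in the labels pairs them. The median difference of the members stayed within the replicate spread (SD 0.20) of -0.054, at -0.069 to 0.13 when 1 library was left out. Of 96 single-gene alternatives, 87 kept the sign and 9 changed it, each by leaving out 1 library: without knockout library 1, Spesp1 (0.082) and Crisp2 (0.091); without knockout library 2, Izumo4 (0.11) and Tmem95 (0.021); without heterozygous library 1, Spesp1 (0.079), Dcst1 (-0.18) and Crisp2 (0.038); without heterozygous library 2, Izumo2 (0.19) and Tmem95 (0.14). Over the fits that left out 1 library, the differences ran from -0.44 to 0.19 for Izumo2, -0.47 to 0.11 for Izumo4, -0.24 to 0.082 for Spesp1, -0.28 to 0.14 for Tmem95, -0.18 to 0.61 for Dcst1 and -0.16 to 0.091 for Crisp2. Of the 8 places in the order per kb, 4 were kept with the longest transcript as length. Depth limits Tmem95 most, with 363 reads in heterozygous library 1.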
